A study of Mus musculus with 12 samples.

Results

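The genes described here carry cholesterol to estradiol in the ovary of the lethal yellow (LY) mouse: Star, Cyp11a1, Fdx1, Fdxr, Hsd3b1, Cyp17a1, Cyp19a1, Hsd17b1, Nr5a1 and Por. They were chosen by name as the steps of the pathway with their electron donors and their transcription factor. Of these 10 genes, 7 have a probe that the platform annotation pairs with that gene alone, through 8 of the 36227 probes on the array, since Nr5a1 has 2. Fdxr, Cyp19a1 and Por have no probe named for them in the annotation used and are not analysed here, so the aromatase step itself is missing. Ovaries came from 12 female mice, 1 CodeLink array per mouse and 3 mice in each of 4 groups: LY mice, strain C56BL/6J Ay/a in the spelling of the labels, and black mice, C56BL/6J a/a, at 90 and at 180 days of age. Every mouse had been given Antide, a GnRH antagonist, at 10 microg/g body weight on days 1 and 4, and then eCG at 1 IU per 5 g body weight. The ovaries were collected on day 7, 36 h after the eCG. All groups are thus suppressed and restimulated ovaries, and no untreated ovary is among them. The Ay allele is a deletion that places the agouti gene under the promoter of Raly in nearly every tissue. By genotype LY mice thus differ from black mice in agouti and in 1 copy of the deleted segment throughout the body. The paper reports that the older LY mice were heavier than black mice of their age, and that the younger were not. Antide and eCG were dosed by body weight, so a heavier mouse received more of each. The part of body weight and of total dose in the genotype differences was not tested.

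Steroid synthesis begins when the StAR protein, encoded by Star, moves cholesterol to the inner mitochondrial membrane. There Cyp11a1, the side chain cleavage enzyme, makes pregnenolone with electrons that ferredoxin (Fdx1) brings from ferredoxin reductase (Fdxr). Hsd3b1 turns pregnenolone into progesterone, and Cyp17a1, with electrons from Por, makes androgen in theca cells. In granulosa cells Cyp19a1 makes estrogen from that androgen and Hsd17b1 reduces estrone to estradiol. Nr5a1, also known as SF-1, is a nuclear receptor that binds the promoters of many of these genes. In a growing follicle, FSH acts on granulosa cells and LH on theca cells, and eCG has both activities.

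Promoter windows are shown for the measured enzymes that have one in the RefSeq table (build GRCm38.p6), because Nr5a1 is among the members and binds DNA at sites of this class. Of the 7 measured genes, 3 matched: Cyp11a1 with 2 windows, Fdx1 and Hsd3b1. Each sequence holds the 250 bases before an annotated start, read 5′ to 3′ along the gene. Capitals mark TCAAGG or AGGTCA on either strand, the overlapping left and right parts of the extended Nr5a1 element, which share the letters AGG.
Cyp11a1, chr9:58014702-58014951, plus strand: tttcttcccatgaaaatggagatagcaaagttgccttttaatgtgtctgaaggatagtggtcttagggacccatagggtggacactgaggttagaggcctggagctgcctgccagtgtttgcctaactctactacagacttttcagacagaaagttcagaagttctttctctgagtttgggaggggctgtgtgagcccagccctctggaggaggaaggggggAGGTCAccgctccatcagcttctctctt
Fdx1, chr9:51963603-51963852, minus strand: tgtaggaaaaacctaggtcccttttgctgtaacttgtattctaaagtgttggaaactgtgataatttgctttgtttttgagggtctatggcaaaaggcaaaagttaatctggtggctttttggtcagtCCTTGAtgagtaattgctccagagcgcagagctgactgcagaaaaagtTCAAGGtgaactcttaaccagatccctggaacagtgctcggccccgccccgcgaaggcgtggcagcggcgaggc
Hsd3b1, chr3:98859795-98860044, minus strand: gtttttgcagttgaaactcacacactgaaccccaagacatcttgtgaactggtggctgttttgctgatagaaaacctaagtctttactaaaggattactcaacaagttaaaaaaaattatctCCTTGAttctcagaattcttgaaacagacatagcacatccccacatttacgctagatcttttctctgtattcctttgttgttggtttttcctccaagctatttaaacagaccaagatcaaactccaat
In the Cyp11a1 window shown, AGGTCA began 28 bases before the annotated start. TCAAGG, on either strand, began 122 and 74 bases before the start of Fdx1 and 128 bases before that of Hsd3b1. The other Cyp11a1 window, chr9:57997774-57998023, held neither motif. Among all 32851 windows of this length, 14% held AGGTCA, 12.5% held TCAAGG and 24.1% held at least 1 of them. A match is a description of these letters and not a bound site.

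Values are relative intensity units, the background-corrected intensity of a probe divided by the median of its array. The median probe is thus at 1 unit, and the limit of sensitivity is 0.2 units. All 8 member probes were above that limit on every array. Levels of different probes are not compared, since brightness depends on the probe. Differences are on the log2 scale and come from a limma fit of the 4 group means to the 12 arrays together. P-values were adjusted by Benjamini-Hochberg, and 31359 probes entered the test. A difference was called at an adjusted p under 0.05. The labels hold: agouti lay between 95.7 and 111 units in LY ovaries and between 0.169 and 0.368 in black ovaries, and Raly between 7.75 and 10.9 against 13.0 to 23.6. On the later principal components 90-day black replicate 1, 90-day LY replicate 1 and 180-day LY replicate 3 stood apart from their groups. The arrays of each age were processed as a set, so a comparison between ages is also one between array sets, and these cannot be told apart.

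Star and Cyp11a1, the genes of cholesterol entry and side chain cleavage, had higher means in LY than in black ovaries at 180 days and lower means at 90 days, while the means of Hsd17b1 ran the opposite way, but none of these differences passed the test over all probes. At 180 days 0 of the 7 genes were called in limma (background 0.0446% of all probes), and 3, namely Star, Cyp11a1 and Hsd17b1, had an unadjusted p under 0.05 (background 12%). The same 3 genes separated the 3 LY from the 3 black mice without overlap, against 22.6% of all probes. At 90 days 0 of 7 were called (background 0.0446%), 2 had an unadjusted p under 0.05 (background 13.3%), and Cyp11a1 alone separated the groups, against 16.5% of all probes. For the change of the genotype difference with age, 0 of 7 were called, as was 0% of all probes, and 3 had an unadjusted p under 0.05 (background 12.1%). Star, Cyp11a1 and Hsd3b1 had every LY mouse above the black mean at 180 days and below it at 90 days, as did 9.01% of all probes with complete values. The median log2 difference of the 7 genes, with the brighter probe of Nr5a1, was 0.12 at 180 days and -0.10 at 90 days, against 0.03 and -0.00 over all probes tested. Differences ran from -0.51 to 0.91 at 180 days and from -0.50 to 0.45 at 90 days.

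**Figure D1:**
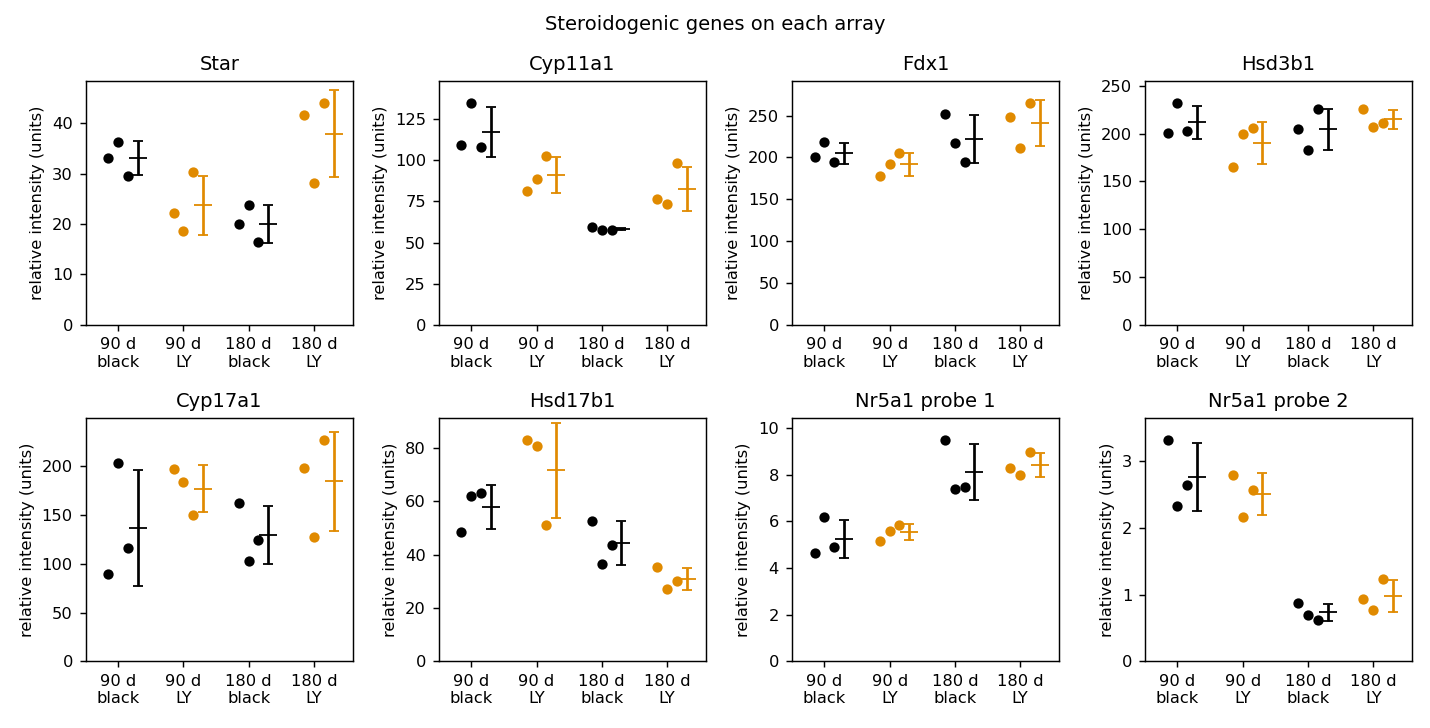
Relative intensity (units, linear axis from 0) of the 8 member probes on each of the 12 arrays, in the order 90-day black, 90-day LY, 180-day black and 180-day LY. Points are single mice, black for black and orange for LY, and the bars beside them are mean and SD of 3 mice. Star and Cyp11a1 are higher in LY at 180 days and have lower means in LY at 90 days, Hsd17b1 is lower in LY at 180 days, and the 2 Nr5a1 probes move in opposite directions between the ages.

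Star, the transporter whose activity sets the pace of acute steroid synthesis, had the largest genotype difference among the members at 180 days. It lay at 19.9, 23.8 and 16.4 units in the 180-day black ovaries and at 41.7, 28.1 and 44.0 units in the 180-day LY ovaries. Every LY mouse of this age was above every black mouse, and LY replicate 2 lay nearest to them. The log2 difference was 0.91 (SE 0.22, 1.88-fold, 95% interval 1.34 to 2.64), with an adjusted p of 0.168. Across 24 alternatives this difference ran from 0.72, with quantile normalization, to 1.11. At 90 days Star lay at 33.2, 36.3 and 29.6 units in black ovaries and at 22.2, 18.6 and 30.3 units in LY ovaries. LY replicate 3 was above the lowest black mouse, so these groups overlapped, and the log2 difference was -0.50 (SE 0.22, adjusted p = 0.360). Across 24 alternatives the 90-day difference ran from -0.84, with quantile normalization, to -0.35. RNA of a whole ovary cannot tell fewer cells of a type from less RNA per cell, here and for every gene that follows.

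The change of the Star difference from 90 to 180 days was 1.42 on the log2 scale (SE 0.31, 95% interval 0.73 to 2.10, unadjusted p = 0.000922, adjusted p = 0.116 in limma). It ranked 246th by p among the 31359 probes. Leaving out any 1 of the 12 arrays gave 1.26 to 1.62. With a pseudocount of 0.5 units, with probes of at least 1 unit or with an intensity trend in the fit it passed the test, at adjusted p = 0.0386, 0.0392 and 0.0398. Those settings called 219, 223 and 198 probes, where the fit as designed called 0.

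Cyp11a1, which commits cholesterol to steroid synthesis, had the same directions with a narrower spread. The 180-day black ovaries lay at 59.2, 57.8 and 57.9 units and the 180-day LY ovaries at 76.5, 73.3 and 98.1 units. The groups did not overlap, and the log2 difference was 0.49 (SE 0.14, 1.41-fold, adjusted p = 0.220). Across 24 alternatives this difference ran from 0.30, with quantile normalization, to 0.57. At 90 days the black ovaries lay at 109.4, 134.8 and 108.0 units and the LY ovaries at 81.6, 88.7 and 102.9 units. Here every LY mouse was below every black mouse, with a log2 difference of -0.37 (SE 0.14, adjusted p = 0.292). The difference changed with age by 0.86 (SE 0.19, 95% interval 0.43 to 1.28, adjusted p = 0.130), and by 0.54 with quantile normalization. Under the 3 settings that called Star it was called as well, at adjusted p = 0.0446, 0.0468 and 0.0465, and leaving out 1 array gave 0.73 to 0.95.

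Fdx1, the ferredoxin that carries electrons to Cyp11a1, differed little between the genotypes. It lay at 252, 218 and 195 units in 180-day black and at 248, 211 and 265 units in 180-day LY ovaries. It lay at 201, 219 and 195 units in 90-day black and at 177, 192 and 205 units in 90-day LY ovaries. The genotypes overlapped at both ages, with log2 differences of 0.12 (95% interval -0.14 to 0.39) and -0.10 (-0.36 to 0.17). The brightest probe of an array lay between 271 and 365 units, so this probe was near the upper end of the scale.

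Hsd3b1, which makes progesterone from pregnenolone, had the narrowest intervals of the 7 genes. It lay at 205, 182 and 226 units in 180-day black and at 226, 207 and 211 units in 180-day LY ovaries. It lay at 200, 232 and 203 units in 90-day black and at 165, 200 and 206 units in 90-day LY ovaries. The genotypes overlapped at both ages. The log2 differences were 0.08 (SE 0.11, 95% interval -0.18 to 0.33) and -0.16 (SE 0.11, 95% interval -0.41 to 0.10), so a difference as large as that of Star lay outside both intervals. Hsd3b1 belongs to a family of closely related genes, and whether its 30-mer probe tells them apart was not tested. This probe also lay near the upper end of the scale.

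Cyp17a1, the androgen-forming enzyme of theca cells, had the widest spread between mice. It lay at 162, 103 and 125 units in 180-day black and at 199, 128 and 227 units in 180-day LY ovaries. It lay at 89.8, 203 and 116 units in 90-day black and at 198, 184 and 150 units in 90-day LY ovaries. The highest 90-day black mouse was above all 3 LY mice of its age, and the coefficient of variation in that group was 43.5%. The log2 differences were 0.49 at 180 days (SE 0.31, adjusted p = 0.562) and 0.45 at 90 days (SE 0.31, adjusted p = 0.564). Their change with age was 0.04 (95% interval -0.92 to 1.00), an interval that holds changes as large as that of Cyp11a1 in either direction.

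Hsd17b1, the granulosa cell enzyme that makes estradiol from estrone, ran against Star and Cyp11a1. It lay at 52.8, 36.5 and 43.8 units in 180-day black and at 35.5, 27.3 and 30.2 units in 180-day LY ovaries. Every LY mouse of this age was below every black mouse, the nearest pair being 36.5 and 35.5 units, with a log2 difference of -0.51 (SE 0.21, 0.703-fold, adjusted p = 0.375). At 90 days it lay at 48.4, 62.1 and 63.2 units in black and at 83.1, 80.8 and 51.0 units in LY ovaries. Those groups overlapped through LY replicate 3, and the log2 difference was 0.28 (SE 0.21, adjusted p = 0.600). The change with age was -0.79 (SE 0.30, 95% interval -1.45 to -0.14, unadjusted p = 0.0222, adjusted p = 0.310) and lay between -1.02 and -0.66 when 1 array was left out. Of 10 other granulosa cell markers none was called in limma at either age, and 2 had an unadjusted p under 0.05 at each. The background for that count was 12% of all probes at 180 days and 13.3% at 90 days. At 180 days 1 of the 10 had a log2 difference above 0 (55.9% of all probes) and at 90 days 9 did (49.1% of all probes), with medians of -0.40 and 0.20. Their summed level was 198 to 256 units in 180-day LY against 271 to 336 in 180-day black ovaries, and 278 to 384 against 274 to 371 at 90 days, where the sums overlapped. Their part in the Hsd17b1 difference was not tested.

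**Figure D2:**
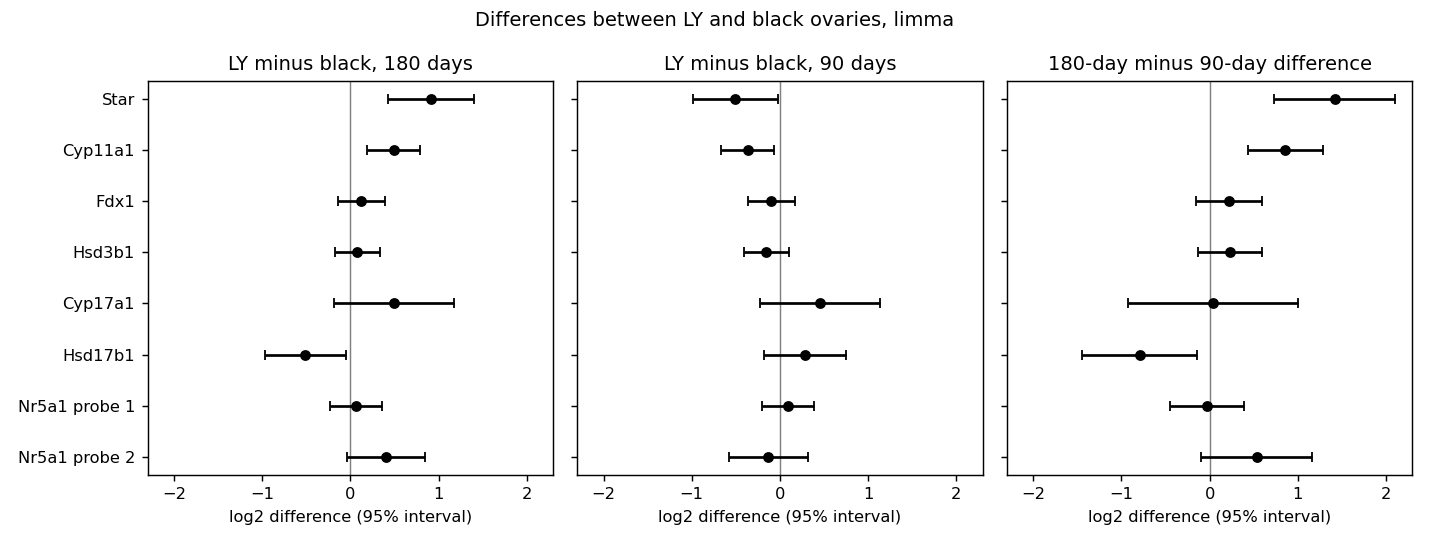
Log2 differences with 95% intervals from limma for the 8 member probes. The panels give LY minus black at 180 days, LY minus black at 90 days, and the former minus the latter. The intervals of Star, Cyp11a1 and Hsd17b1 leave out 0 at 180 days and in the change with age, before any adjustment for the number of probes, and those of Fdx1 and Hsd3b1 span 0 in all 3 panels.

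Nr5a1, the transcription factor of the pathway, did not differ detectably between the genotypes by either probe. The brighter probe lay at 9.49, 7.39 and 7.46 units in 180-day black and at 8.27, 7.99 and 8.99 units in 180-day LY ovaries. It lay at 4.62, 6.19 and 4.92 units in 90-day black and at 5.17, 5.61 and 5.83 units in 90-day LY ovaries. The log2 differences were 0.06 (95% interval -0.23 to 0.36) and 0.09 (-0.21 to 0.38), with the genotypes overlapping at both ages. The dimmer probe lay at 0.880, 0.699 and 0.622 units in 180-day black and at 0.936, 0.771 and 1.23 units in 180-day LY ovaries. It lay at 3.32, 2.32 and 2.65 units in 90-day black and at 2.79, 2.17 and 2.57 units in 90-day LY ovaries. Its log2 differences were 0.41 (SE 0.20, adjusted p = 0.458) and -0.13 (SE 0.20, adjusted p = 0.828).

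The 2 Nr5a1 probes disagreed between the ages. The brighter was higher at 180 than at 90 days by 0.62 (SE 0.09, adjusted p = 0.000220 in limma), and the dimmer was lower by 1.64 on the log2 scale (difference -1.64, SE 0.14, adjusted p = 3.32e-06). In both cases the 6 mice of 1 age lay wholly apart from the 6 of the other. The same held for 36.6% of all probes with complete values, 20.6% higher and 16% lower at 180 days. No single direction can therefore be given for Nr5a1 with age, and which transcript each probe reads was not tested.

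Between the ages 4 of the 7 genes were called with both genotypes averaged, where 59.3% of all probes were called, so that count is below the background. Cyp11a1 was lower at 180 days by 0.57 (difference -0.57, SE 0.10, adjusted p = 0.000431) and Hsd17b1 by 0.79 (difference -0.79, SE 0.15, adjusted p = 0.000918). Fdx1 was higher by 0.22 (SE 0.09, adjusted p = 0.0480), a call that held in 9 of 22 alternatives, and Nr5a1 by its brighter probe. Quantile normalization put Cyp11a1 at -1.15 and Hsd17b1 at -1.33. Star (-0.03), Hsd3b1 (0.06) and Cyp17a1 (0.01) were not called, and quantile normalization put Star at -0.41. All of these can equally hold a difference between the 2 array sets.

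Within a genotype the ages ordered the genes differently. In black mice Star was lower at 180 than at 90 days by 0.73 (difference -0.73) and Cyp11a1 was lower as well (58.3 against 117 units), both without overlap. In LY mice Star was 0.68 higher, with overlap, and Cyp11a1 differed by -0.15. Hsd17b1 differed by -0.39 in black mice, with overlap, and by -1.18 in LY mice, without. In LY mice Fdx1 was 0.33 and Hsd3b1 0.18 higher at 180 than at 90 days, both without overlap, while in black mice both overlapped. The nearest Hsd3b1 values in LY mice were 206 units at 90 days and 207 at 180 days. The share of all probes without overlap within a genotype was not computed. With both genotypes together, 36.6% of all probes with complete values separated the ages, so such separations were common. They can equally hold a difference between the 2 array sets. The order of the Star means was 180-day LY (38.0 ± 8.59, SD, n = 3), 90-day black (33.0 ± 3.37), 90-day LY (23.7 ± 5.96) and 180-day black (20.0 ± 3.70), and each neighbouring pair in this order overlapped. For Cyp11a1 the order was 90-day black (117 ± 15.1), 90-day LY (91.1 ± 10.9), 180-day LY (82.7 ± 13.5) and 180-day black (58.3 ± 0.789), with overlap between the 2 LY groups. For Hsd17b1 it was 90-day LY (71.6 ± 17.9), 90-day black (57.9 ± 8.23), 180-day black (44.4 ± 8.17) and 180-day LY (31.0 ± 4.16), and 180-day LY stood apart from its neighbour. For Fdx1, Hsd3b1 and Cyp17a1 every neighbouring pair in the order of means overlapped.

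A ratio of 2 probes on the same array is free of any single factor that scales the array. It is not free of a scaling that varies with intensity, such as quantile normalization. The ratios were chosen after the values were seen and are given with no test. Relative to Hsd17b1, Star differed between LY and black ovaries by 1.42 at 180 days and by -0.79 at 90 days, on the log2 scale. Cyp11a1 relative to Hsd17b1 differed by 1.00 and by -0.65, and Cyp17a1 by 1.00 and by 0.17. Hsd17b1 was itself lower in every LY mouse at 180 days, so a ratio to it leans towards a higher value in LY ovaries of that age by its construction. The ratio of Star to Cyp11a1, which leaves Hsd17b1 out, differed by 0.42 at 180 days and by -0.14 at 90 days, with overlap at 180 days.

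The genes whose profile over the 12 arrays was most like that of Star were sought among 12004 probes with a mean of at least 1 unit, by the root mean square difference of log2 values centred within each age. The median of this difference was 0.449, and the profile of Star itself had a root mean square of 0.440. The nearest were Mrap (0.135), which carries the ACTH receptor to the cell surface, Hdc (0.170), which makes histamine, and the enzymes of cholesterol synthesis Hmgcs1 (0.184), Msmo1 (0.194) and Lss (0.195). Among the members Cyp11a1 ranked 27th (0.245), and Hsd17b1 ranked 11836th (0.691).

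**Figure D3:**
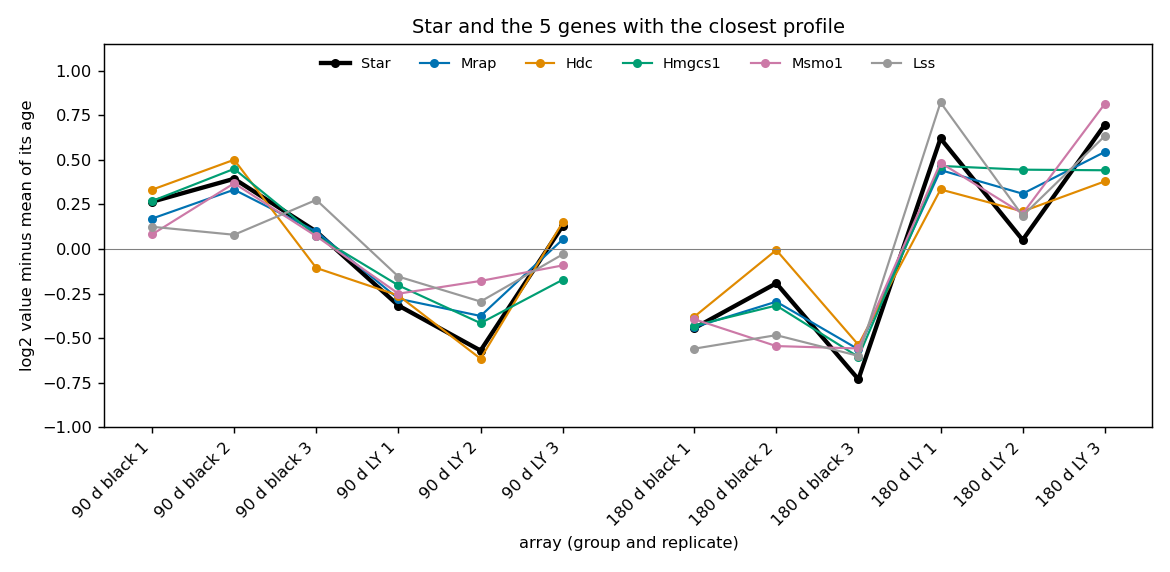
Log2 values of Star (thick black line) and of the 5 genes nearest to it, Mrap, Hdc, Hmgcs1, Msmo1 and Lss, on the 12 arrays, each centred on its mean within an age. The lines join mice of a group in the order of their replicate numbers, which has no meaning as a sequence. At 180 days all 6 genes lie below 0 in the black mice and above 0 in the LY mice, and at 90 days most black mice lie above 0 and most LY mice below it.

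Mrap lay at 35.0, 38.6 and 32.1 units in 180-day black and at 64.4, 58.7 and 69.1 units in 180-day LY ovaries. The groups were well apart, with a log2 difference of 0.86 and an adjusted p of 0.0512 in limma. At 90 days Mrap lay at 44.4, 49.7 and 42.2 units in black and at 32.5, 30.4 and 40.9 units in LY ovaries, a log2 difference of -0.40 (adjusted p = 0.231). Hmgcs1 was higher in LY ovaries at 180 days by 0.90 (adjusted p = 0.0345) and Lss by 1.09 (adjusted p = 0.0394), and both lost the call in most of the 24 alternatives, passing in 10 and 9 of them. Msmo1 had a log2 difference of 1.00 (adjusted p = 0.0512) and Hdc of 0.62 (adjusted p = 0.307). These genes were picked for their likeness to Star on the same arrays, so their differences are no further support for that of Star.

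Of 85 further genes of the pathway, in 5 lists, 72 had a probe and 69 were tested. None of the 69 was called in limma at 180 days, at 90 days or in the change with age. An unadjusted p under 0.05 was found for 13 at 180 days (18.8%, against 12% of all probes). At 90 days it was found for 11 of the 69, against 13.3% of all probes. Their median log2 difference was 0.01 at 180 days and -0.10 at 90 days. Between the ages 23 of the 69 were higher and 17 lower at 180 days, near the background of 33.8% and 25.4% of all probes.

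Among 7 tested genes that deliver cholesterol with StAR, 5 had a difference above 0 at 180 days (55.9% of all probes) and 0 did at 90 days (49.1%), with medians of 0.22 and -0.25, and none was called. Tspo, a protein of the outer mitochondrial membrane, lay at 21.3, 25.3 and 19.5 units in 180-day black and at 30.4, 32.0 and 36.6 units in 180-day LY ovaries. The groups did not overlap, and the log2 difference was 0.58 (adjusted p = 0.133). At 90 days it was -0.12 (adjusted p = 0.716). Among 7 electron transfer partners the medians were 0.18 and -0.17. Cyb5a, the cytochrome b5 that assists Cyp17a1, had -0.14 at 180 days (adjusted p = 0.547 in limma) and -0.17 at 90 days (adjusted p = 0.440). Cyb5r3, a cytochrome b5 reductase, had 0.43 (adjusted p = 0.278) and -0.37 (adjusted p = 0.344).

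Among 19 other steroid enzymes the medians were 0.01 and -0.04. Hsd17b12, which acts on fatty acids and on estrone, had 0.57 (adjusted p = 0.272) and -0.25 (adjusted p = 0.590). Hsd17b7 had 0.25 at 180 days (adjusted p = 0.773) and -1.70 at 90 days (adjusted p = 0.0773 in limma). Its means at 90 days were 10.5 ± 3.81 units (SD) in black and 3.17 ± 0.762 in LY ovaries. Akr1c18, which inactivates progesterone and is high in regressing corpora lutea, lay at 3.21, 1.82 and 25.7 units in 180-day black and at 2.57, 0.973 and 0.990 units in 180-day LY ovaries. Black replicate 3 alone was high, and without it the log2 difference of -1.97 (adjusted p = 0.374) became -0.83.

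Among 20 regulators of steroidogenic genes the medians were -0.06 and -0.04. Gata6, a transcription factor of the ovarian somatic cells, lay at 5.99, 5.13 and 4.99 units in 180-day black and at 3.45, 2.78 and 2.49 units in 180-day LY ovaries. The log2 difference was -0.89 (adjusted p = 0.129), without overlap. Nr4a1, an immediate early nuclear receptor, lay at 3.86, 3.45 and 3.36 units in black and at 6.88, 4.95 and 5.43 units in LY ovaries of that age, a difference of 0.68 (adjusted p = 0.144). Nr5a2, the relative of Nr5a1 in granulosa cells, had -0.49 (adjusted p = 0.337) and 0.15 (adjusted p = 0.779).

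Among 16 genes of gonadotropin receptors and cAMP signalling the medians were 0.09 and -0.04. Fshr, the FSH receptor of granulosa cells, lay at 9.60, 5.08 and 6.57 units in 180-day black and at 5.85, 4.27 and 4.05 units in 180-day LY ovaries. These overlapped, with a log2 difference of -0.55 (adjusted p = 0.422). At 90 days it lay at 4.97, 7.35 and 7.37 units in black and at 9.70, 11.5 and 8.01 units in LY ovaries. Every LY mouse was then above every black mouse, with a difference of 0.57 (adjusted p = 0.365). Pde4b, a cAMP phosphodiesterase, had 0.27 (adjusted p = 0.329) and -0.17 (adjusted p = 0.492).

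Markers of several cell types were measured, and all 10 granulosa and all 10 oocyte genes had a probe in the test. So did all 4 measured adrenal, all 6 adipocyte and all 5 leukocyte genes, so presence in the test does not check the tissue label. Theca markers other than Cyp17a1 summed to 96.3 to 104 units in 180-day LY and 98.7 to 101 in 180-day black ovaries, and to 98.8 to 103 and 98.6 to 110 at 90 days, with medians of -0.06 and -0.02 over 5 genes. Oocyte markers summed to 42.6 to 62.1 units in 180-day LY against 63.2 to 84.0 in 180-day black ovaries, without overlap. Of these 10 genes 2 were above 0 (55.9% of all probes), with a median of -0.34, and 5 had an unadjusted p under 0.05 in limma (12% of all probes). At 90 days the oocyte markers summed to 64.1 to 67.2 against 55.2 to 74.1, with overlap and a median of 0.11. Of the 10 genes 9 were then above 0 (49.1% of all probes), and 1 had an unadjusted p under 0.05 (13.3%). The part of oocytes in the differences of the member genes was not tested. Luteal markers, 5 genes, summed to 40.2 to 49.9 units in 180-day LY and 41.2 to 86.2 in 180-day black ovaries, and to 39.4 to 55.6 and 73.3 to 102 at 90 days, with medians of -0.35 and -0.87 and 0 of the 5 genes above 0 at either age. At 180 days the luteal sums overlapped, and 1 of the 5 genes had an unadjusted p under 0.05 in limma (12% of all probes). At 90 days the sums did not overlap, and 3 of the 5 had one (13.3%). Sfrp4, with means of 43.0 units in 180-day black and 35.3 in 180-day LY ovaries, made up the largest part of these sums. The Star and Cyp11a1 means in LY ovaries were lower at 90 days and higher at 180 days. The part of luteal cells in those differences was not tested.

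Adrenal cortex markers summed to 59.6 to 70.1 units in 180-day LY and 32.7 to 39.2 in 180-day black ovaries, and to 30.9 to 41.7 and 42.7 to 50.2 at 90 days. Of the 4 genes Mrap made up nearly all of this sum. Cyp21a1, which defines the adrenal cortex, was at or below 0.336 units on every array, Cyp11b2 at or below 0.612 and Mc2r, the ACTH receptor, at or below 0.250. All 4 genes had a log2 difference above 0 at 180 days, though Cyp21a1 did not with a floor of 0.2 units or without 180-day black replicate 3. Cyp11b2, the aldosterone synthase, had means of 0.524 units in LY and 0.381 units in black ovaries of that age, a difference of 0.46 (unadjusted p = 0.0309, adjusted p = 0.369 in limma). The part of such cells in the Star and Cyp11a1 differences was not tested. Adipocyte markers summed to 25.6 to 28.0 units in 180-day LY and 20.4 to 47.3 in 180-day black ovaries, and to 10.0 to 44.3 and 14.2 to 72.5 at 90 days. Leukocyte markers summed to 29.9 to 56.1 and 35.5 to 56.0 units at 180 days and to 21.4 to 32.3 and 19.1 to 30.4 at 90 days, LY before black. Lyz2, with a mean of 42.4 units in each 180-day group, made up nearly all of this sum. Markers of surface epithelium and oviduct summed to 24.5 to 31.5 and 30.8 to 34.5 units at 180 days and to 22.5 to 24.5 and 31.6 to 40.2 at 90 days, again LY before black. Of the 8 genes of this last list 0 had a difference above 0 at 90 days (49.1% of all probes), with a median of -0.65, and 7 had an unadjusted p under 0.05 (13.3% of all probes). The part of these cells in the lower Star and Cyp11a1 means of the 90-day LY ovaries was not tested. No gene of any of these lists was called between the genotypes at either age.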

How the data were processed

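RNA of 12 ovaries was measured on one-colour CodeLink arrays of 30-mer probes. The authors scanned them with GenePix, corrected the background with CodeLink software and normalized each slide to its 50th percentile in GeneSpring. The deposited intensity values are linear, with a median of 1.00 on 180-day and 1.04 on 90-day arrays, and are not centred by gene. Arrays lacked 166 to 503 values each, and 67 to 144 were negative.

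Here every value was expressed relative to the median of its array, floored at 0.01 units and put on the log2 scale. limma 3.58.1 in R 4.3.3 fitted 4 group means (residual df 8, prior df 2.46) to 31359 probes, those that reached a mean of 0.2 units in some group and had a value in every group. Gene names came from the platform annotation: 21615 probes carry 1 symbol, 681 several and 13931 none. Where a listed gene has several probes, the brightest by mean log2 stands for it. The number of arrays limits the precision, and with 3 mice against 3 an exact permutation test cannot go below 0.1.

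The members, the gene lists (cholesterol delivery, steroid enzymes, electron transfer, regulators, gonadotropin signalling and 8 cell types) and the tests were chosen with earlier results of these data known. Named are every member probe, the 5 genes nearest to Star, of each list any called gene and up to 3 others by p at 180 days, and agouti and Raly. Cyp11b2, Cyp21a1 and Mc2r fall under the same rule for the adrenal list. Hsd17b7 falls outside it and is named for its difference at 90 days, and Cyb5a, also outside it, is named as a partner of Cyp17a1. The procedure was tested on simulated data. Same-numbered mice did not deviate together in every pair (correlations -0.07 to -0.00 at 180 and 0.05 to 0.15 at 90 days), so no block was used. Alternatives changed the floor, pseudocount, scaling, filter, trend, weights and block, used the arrays of 1 age or the methods' test, or left out each array.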

Additional observations from a re-analysis of the deposited data

Results flagged for a closer look

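For 3 members every LY mouse lay on one side of the black mean at 180 days and every LY mouse on the opposite side at 90 days. For Star the log2 difference between LY and black ovaries at 180 days exceeded that at 90 days by 1.42 (0.91 against -0.50, adjusted p = 0.116 in limma). For Cyp11a1 it did by 0.86 (0.49 against -0.37, adjusted p = 0.130), and for Hsd3b1 by 0.23 (0.08 against -0.16, adjusted p = 0.610), with a 95% interval of -0.13 to 0.59. None passed limma's test of the difference itself. Of all probes with complete values, 9.01% had this pattern in the same direction and 4.22% in the opposite one.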

How the results depend on the processing

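No member was called between the genotypes at 180 or at 90 days in any of the 24 alternatives for each age. Between the ages 3 or 4 members were called in every alternative. For the change of the genotype difference with age the count was 2 in place of 0, namely Star and Cyp11a1, with a pseudocount of 0.5 units, with a filter at 1 unit and with an intensity trend, and the cause was not tested. All other alternatives gave 0. The methods' t-test, without adjustment, called 2 members at 180 days (Star and Cyp11a1) and 0 at 90 days at the level named in the methods, and 0 at either age after Benjamini-Hochberg adjustment. The replicate number of the labels was used as a block as an alternative, though the numbers do not pair the mice. With this block Star had 0.91 (SE 0.24, adjusted p = 0.243) at 180 days, 0, 0 and 0 members were called for the genotype at 180 days, at 90 days and in its change with age, and 3 between the ages. Hmgcs1 and Lss, at adjusted p = 0.0880 and 0.0742, lost the call at 180 days under the block.

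Some values changed sign, most of them near 0. The change of the Cyp17a1 difference with age was -0.11 with quantile normalization and -0.11 with array weights, and -0.29 to 0.30 without 1 array. Its difference between ages was -0.047 with no division by the median, -0.22 with quantile normalization, -0.0198 with weights and -0.12 to 0.17 without 1 array. Hsd3b1 between ages was -0.085 with quantile normalization. Cyp21a1 at 180 days was -0.092 with a floor of 0.2 units and -0.027 to 2.27 without 1 array. Mc2r at 90 days was -0.11 with weights. Without 1 array, Hsd3b1 at 180 days ran from -0.0032 to 0.15 and the brighter Nr5a1 probe at 180 days from -0.0014 to 0.18, the brighter Nr5a1 probe's change with age ran from -0.15 to 0.091, Star between ages from -0.11 to 0.075, the dimmer Nr5a1 probe at 90 days from -0.25 to 0.0093, Pgrmc1 at 90 days from -0.27 to 0.030 and Mc2r at 90 days from -0.10 to 0.34. Of the remaining comparisons of single genes with an alternative, 1721 kept their direction and side of the threshold, 42 lost a call and 28 gained one. Where no value was missing, several alternatives could not move a genotype difference within an age. These were the filter, trend, block, single-age fit and t-test, and leaving out an array of the other age. Only its standard error and p-values could change there, so its direction was kept by construction. With 3 mice a group, the standard errors of 0.11 to 0.31 limit what could be called, and Fdx1 and Hsd3b1 lay near the brightest signal of the arrays.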
